A study of Mus musculus with 2 samples.

Results

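The 35 genes described here belong to the machinery that copies DNA and divides the cell: 14 genes of DNA replication and 21 genes of mitosis, of 55487 genes in the deposited matrix. They were taken by symbol, by a rule that names no measured value, although earlier results of these data were known when they were chosen, and all 35 were found. Before a cell copies its DNA, loading factors such as Cdc6 set rings of Mcm proteins on the origins, and in S phase these rings unwind the DNA while Pcna holds the polymerases on it. In mitosis, Cdk1 with the B cyclins condenses the chromosomes, while kinesins and kinases of the Aurora and Polo families build the spindle. Cdc20 and Ube2c act with the anaphase-promoting complex to mark the cyclins for destruction. In the thymic medulla, dividing epithelial cells of the transit-amplifying (TA) kind feed the Aire-expressing cells, from which mimetic cells arise that carry programs of tuft, ciliated, muscle and other peripheral cells.

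Single cells came from the thymus of C57BL/6 mice and were sorted as mTEClo, the medullary thymic epithelial cells with low MHC class II, without Pdpn and CD104 on the surface. The Hnf4dTEC group (4 samples) carried Foxn1(cre/+), Hnf4a(fl/fl) and Hnf4g(-/-). The Hnf4ctrl group (3 samples) carried Foxn1(cre/+), Hnf4a(fl/+) and Hnf4g(+/-), so the controls too had Cre, a floxed copy of Hnf4a and a null copy of Hnf4g. The Foxn1 promoter drives Cre in thymic epithelium. All 7 samples were marked with hash antibodies and run in a single lane of 10x 3' droplets. Whether the samples came from different animals is not in the labels, and the p-values therefore speak only of the spread among these samples.

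The authors' cell table held 9185 cells in 15 classes. Samples held 1373 to 1652 cells in Hnf4dTEC and 801 to 1579 cells in Hnf4ctrl, with 19321440 to 23501741 UMIs (counted RNA molecules) in Hnf4dTEC and 10127838 to 25821970 UMIs in Hnf4ctrl. Hnf4g was at 78.1 to 88.4 CPM (counts of a gene per 1000000 UMIs) in Hnf4dTEC and 116 to 122 CPM in Hnf4ctrl, and Hnf4a at 0.673 to 2.27 CPM in Hnf4dTEC and 1.68 to 3.18 CPM in Hnf4ctrl. A 3' tag can lie outside the deleted exons, so these levels do not check the deletion. All 6 epithelial markers examined (Epcam, Krt8, Krt18, Foxn1, H2-Aa and Cd74) were present in TA cells. Of 13 thymocyte markers, all had at least 1 UMI in TA cells, and their summed level was 12.2 to 85.6 CPM in Hnf4dTEC and 8.78 to 157 CPM in Hnf4ctrl. In Ciliated cells the same sum was 8.12 to 74.7 CPM in Hnf4dTEC and 14.3 to 108 CPM in Hnf4ctrl, and in Transitional cells, where 11 of 13 had a UMI and Rag1 and Rag2 were at 0, it was 5.03 to 18.1 CPM in Hnf4dTEC and 0 to 8.08 CPM in Hnf4ctrl. Lyz2 made up most of the UMIs of 6 myeloid and B cell markers, which summed in Ciliated cells to 116 to 280 CPM in Hnf4dTEC and 68.6 to 141 CPM in Hnf4ctrl, and in TA cells to 94.7 to 139 CPM in Hnf4dTEC and 99.8 to 146 CPM in Hnf4ctrl. Of 4 endothelial markers, Cdh5 and Cldn5 were at 0 in TA and Transitional cells, while Pecam1 and Kdr had UMIs, and their sum in TA cells was 2.77 to 4.96 CPM in Hnf4dTEC and 2.65 to 6.82 CPM in Hnf4ctrl. In Ciliated cells 3 of the 4 had UMIs. The part of such RNA in the levels below was not tested.

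Replication and mitosis genes differed in how they were spread over 2 classes that the authors named TA and Transitional. All 21 mitosis genes were highest in TA cells, and in 18 of them no sample of the next class reached the lowest TA sample. Of the 14 replication genes, 7 were highest in Transitional cells and 7 in TA cells. Over the replication genes, the median ratio of Transitional to TA cells was 1.01, with a range of 0.253 for Rrm2 to 3.21 for Ung. Ung, Cdc6 and Mcm2, with the highest ratios, were the replication genes lowest in TA cells (5.08, 6.42 and 14.8 CPM). Summed over the 14 replication genes, Transitional cells were below TA cells in every sample, with means of 623 CPM in Transitional and 811 CPM in TA cells. Over the mitosis genes, the same median was 0.0637, with a range of 0.0246 for Plk1 to 0.199 for Ccnb2. These ratios are of mean CPM over samples, where CPM is a gene's share of the UMIs of a sample and class. The authors made the classes from these same cells and genes, so levels between classes are a description with no test. Class values use the 13 classes that had at least 10 cells in 3 or more samples.

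**Figure D1:**
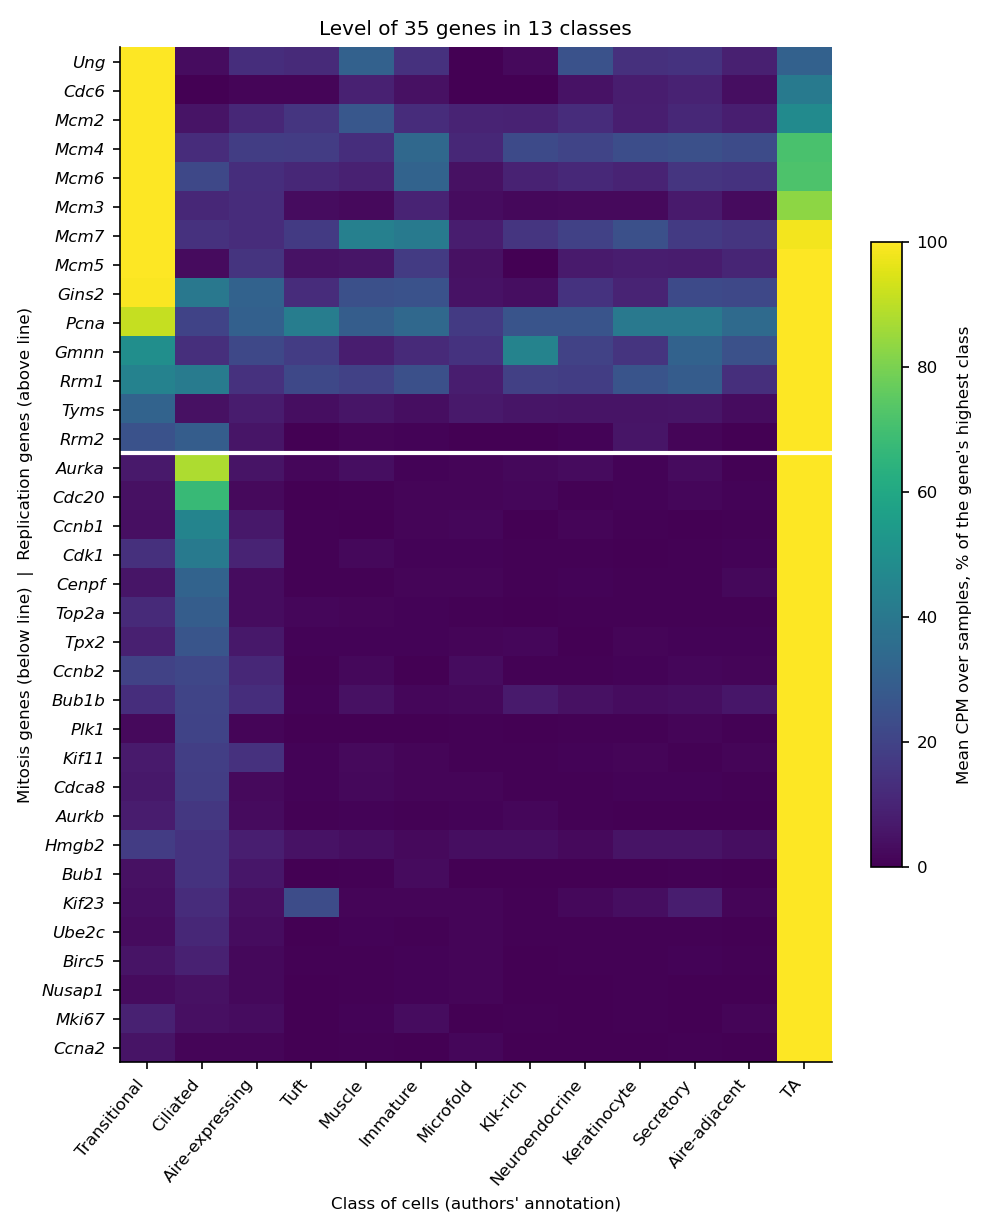
Level of the 35 genes (rows) in 13 classes of cells (columns), as the mean CPM over samples in percent of the gene's own highest class. Replication genes stand above the white line and are ordered by their ratio of Transitional to TA cells, while mitosis genes stand below it, ordered by their ratio of Ciliated to TA cells. The TA column is at 100% for all 21 mitosis genes and for 7 of the 14 replication genes, and Ciliated cells reach 0.878 of the TA level for Aurka.

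The promoters of the 2 groups also differed in letters. The RefSeq table of GRCm38.p6 holds windows from 250 bases before to 50 bases after a gene's start for 29 of the 35 genes, and 30 windows in all, since Mcm7 has 2. Ccna2, Mcm4, Gins2, Tpx2, Gmnn and Aurkb have none in it. Exact matches on both strands were sought for the CCAAT box, for the cell cycle homology region (CHR) TTTGAA, and for the E2F-type sites TTTGGCGC, TTTCCCGC, TTTCGCGC and TTTGCCGC. CHR and CCAAT elements are known for late cell cycle genes, and E2F sites for genes of the G1/S step. CCAAT and CHR letters were both present in 14 of 18 mitosis windows (77.8%) and in 1 of 12 replication windows (8.33%), against 6.95% of all 32851 windows. E2F-type letters were present in 1 of 18 mitosis windows (5.56%) and in 5 of 12 replication windows (41.7%), against 2.26% of all windows. CCAAT letters were in 88.9% of mitosis windows and 75% of replication windows, against 37.4% of all. Among the windows of the 35 genes, 1 pair of CCAAT and CHR matches and 2 pairs of E2F-type matches overlapped. A match is a run of letters and not a shown site. The 4 windows printed are of genes on which the class patterns turn, with all matched letters in capitals: Mcm6 (chr1:128359656-128359955, minus strand) was highest in Transitional cells, Cdc20 (chr4:118437294-118437593, minus strand) stayed high in Ciliated cells, Mki67 (chr7:135716330-135716629, minus strand) did not, and Kif23 (chr9:61946750-61947049, minus strand) was present in Tuft cells.
Mcm6: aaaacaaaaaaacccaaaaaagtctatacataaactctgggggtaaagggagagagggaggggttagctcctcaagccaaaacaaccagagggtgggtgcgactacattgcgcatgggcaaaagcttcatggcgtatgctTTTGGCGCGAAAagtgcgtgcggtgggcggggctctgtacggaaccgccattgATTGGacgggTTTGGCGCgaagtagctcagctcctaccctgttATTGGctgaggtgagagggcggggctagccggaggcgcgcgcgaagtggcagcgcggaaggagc
Cdc20: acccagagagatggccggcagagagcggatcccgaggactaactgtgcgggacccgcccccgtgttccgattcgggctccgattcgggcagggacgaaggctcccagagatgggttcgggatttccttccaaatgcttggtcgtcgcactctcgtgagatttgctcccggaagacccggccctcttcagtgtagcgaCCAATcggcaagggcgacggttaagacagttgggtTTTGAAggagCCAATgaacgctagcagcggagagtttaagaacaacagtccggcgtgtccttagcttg
Mki67: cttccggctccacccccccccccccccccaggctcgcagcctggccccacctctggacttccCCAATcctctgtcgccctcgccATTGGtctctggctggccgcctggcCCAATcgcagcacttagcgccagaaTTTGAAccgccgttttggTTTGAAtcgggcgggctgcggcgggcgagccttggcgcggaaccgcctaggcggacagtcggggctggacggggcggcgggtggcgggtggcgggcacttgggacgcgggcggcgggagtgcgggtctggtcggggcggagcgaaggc
Kif23: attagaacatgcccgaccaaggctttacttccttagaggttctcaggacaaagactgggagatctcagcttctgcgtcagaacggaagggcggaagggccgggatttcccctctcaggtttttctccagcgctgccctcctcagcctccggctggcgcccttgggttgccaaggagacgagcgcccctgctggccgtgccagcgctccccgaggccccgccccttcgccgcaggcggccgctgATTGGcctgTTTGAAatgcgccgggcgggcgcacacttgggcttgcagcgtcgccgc
The Mcm6 window holds overlapping E2F-type letters and CCAAT letters of the other strand, with no CHR. Cdc20, Mki67 and Kif23 each hold CHR letters beside CCAAT letters, and their levels outside TA cells differed, as given further on.

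Of the replication genes, 6 exceeded their TA level in Transitional cells by the most: Ung, Cdc6, Mcm2, Mcm4, Mcm6 and Mcm3. Ung encodes the glycosylase that takes uracil out of DNA. It was at 16.4, 13, 13.2 and 16.2 CPM in Transitional cells of Hnf4dTEC 1 to 4 and at 11.6, 26.3 and 17.5 CPM in those of Hnf4ctrl 1 to 3. In TA cells it was at 6.92, 4.84, 5.19 and 4.13 CPM in Hnf4dTEC and at 0, 2.40 and 12.1 CPM in Hnf4ctrl. Within every sample Ung was higher in Transitional than in TA cells, although its ranges over samples overlapped.

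Cdc6, which loads the Mcm rings with Cdt1, averaged 15.7 CPM in Transitional and 6.42 CPM in TA cells, and was higher in Transitional cells in 7 of 7 samples. Its Transitional level was 9.62, 9.02, 10.7 and 31.3 CPM in Hnf4dTEC and 20.3, 20.2 and 8.45 CPM in Hnf4ctrl, so Hnf4dTEC sample 4 stood well above the other Hnf4dTEC samples. Mcm2, a subunit of the ring, was the sole gene higher in Transitional cells with no overlap between the classes: 32.7, 31.1, 23.9 and 31.3 CPM in Transitional cells of Hnf4dTEC and 49.3, 24.2 and 24.8 CPM in those of Hnf4ctrl. In TA cells Mcm2 was at 17.0, 12.5, 17.5 and 23.1 CPM in Hnf4dTEC and at 2.27, 11.2 and 19.7 CPM in Hnf4ctrl. The highest TA sample thus lay just below the lowest Transitional sample.

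Mcm6, another subunit, was at 48.1, 76.2, 63.4 and 72.6 CPM in Transitional cells of Hnf4dTEC and 60.9, 76.8 and 50.7 CPM in those of Hnf4ctrl. In TA cells it was at 34.1, 49.8, 35.7 and 64.4 CPM in Hnf4dTEC and at 31.8, 48.7 and 58.2 CPM in Hnf4ctrl. The ratio of the means was 1.39, with Transitional above TA in 6 of 7 samples. Mcm4 (ratio 1.40) and Mcm3 (ratio 1.20) were likewise higher in Transitional cells in 6 of 7 samples each, and their ranges overlapped those of TA cells.

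A second set of replication genes was about level between both classes. Mcm7 had a ratio of 1.02, Mcm5 of 0.997, and Gins2, which encodes a subunit of the complex that joins the Mcm ring to Cdc45, of 0.996. Pcna, the sliding clamp, was at 115, 93.2, 114 and 149 CPM in Transitional cells of Hnf4dTEC and at 89.9, 137 and 103 CPM in those of Hnf4ctrl. In TA cells Pcna was at 108, 155, 128 and 126 CPM in Hnf4dTEC and at 84.1, 139 and 137 CPM in Hnf4ctrl. For these 4 genes neither class was above the other in every sample. Mcm7 and Gins2 overlap other coding genes in the annotation, and whether the counting used strand is not given in the sources used here, so their counts, and those of Ccna2, Ube2c, Nusap1, Cdc20 and Cdca8, could include reads of a neighbour.

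A further set stayed below TA in all 7 samples: Gmnn, Rrm1, Tyms and Rrm2. Gmnn encodes geminin, which blocks reloading of the origins and is known to last from S phase to mitosis. It was at 57.7, 45.1, 52.7 and 57.5 CPM in Transitional cells of Hnf4dTEC and 37.7, 62.6 and 57.5 CPM in those of Hnf4ctrl. In TA cells Gmnn was at 79.3, 111, 108 and 125 CPM in Hnf4dTEC and at 111, 95 and 119 CPM in Hnf4ctrl. Tyms, which makes thymidylate, averaged 43.6 CPM in Transitional and 137 CPM in TA cells. Rrm1 and Rrm2 encode the subunits of ribonucleotide reductase, and their ratios were 0.444 and 0.253.

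Among the mitosis genes, all 21 were below TA in Transitional cells of every sample. Hmgb2, a chromatin protein, averaged 633 CPM in Transitional and 3596 CPM in TA cells. Top2a, the topoisomerase that untangles sister chromatids, averaged 72.6 CPM in Transitional and 616 CPM in TA cells, and Cdk1, the mitotic kinase, 40.2 CPM in Transitional and 288 CPM in TA cells. Mki67, a chromosome surface protein used as a marker of dividing cells, averaged 25.4 CPM in Transitional and 279 CPM in TA cells. Ube2c, the ubiquitin carrier of the anaphase-promoting complex, had a ratio of 0.0296, and Nusap1, which bundles spindle microtubules, of 0.0291. Plk1, the Polo kinase, had the lowest of the 21 ratios.

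**Figure D2:**
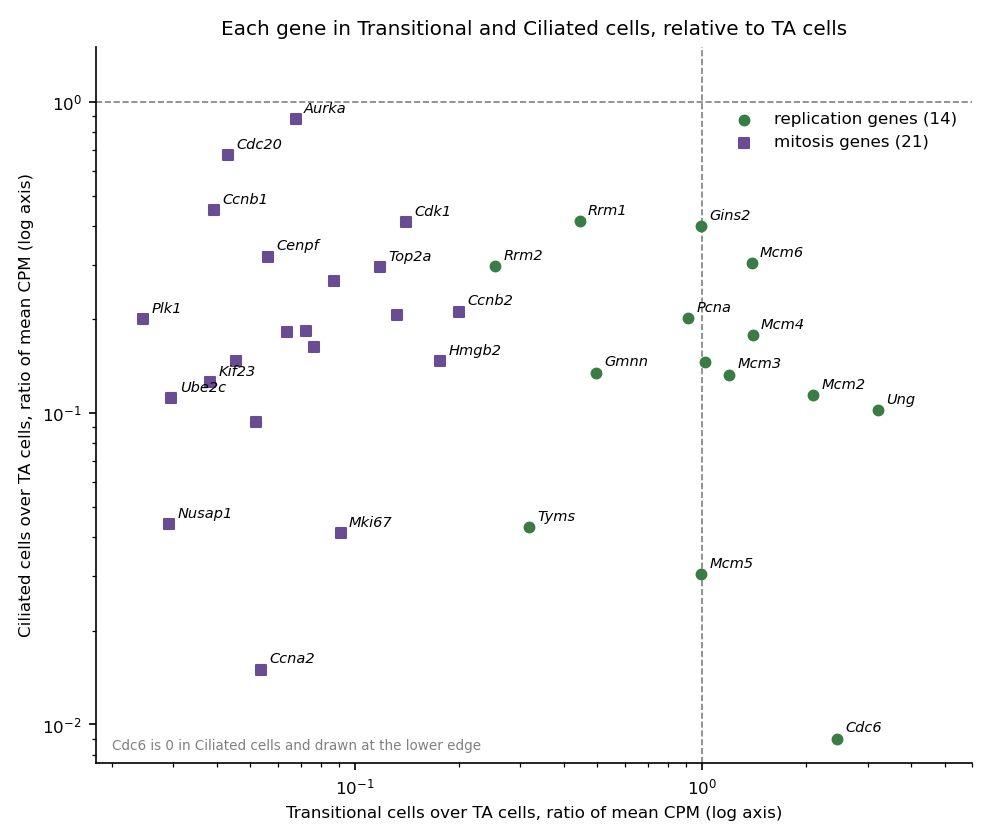
Ratio of mean CPM in Transitional over TA cells (horizontal, log axis) and in Ciliated over TA cells (vertical, log axis) for each of the 35 genes; green circles are replication genes, violet squares are mitosis genes and dashed lines mark equal levels. The 14 replication genes lie at 0.253 to 3.21 on the horizontal axis and the 21 mitosis genes at 0.0246 to 0.199, with no overlap between them, while on the vertical axis both groups spread widely, with Cdc6 at 0 in Ciliated cells and drawn at the lower edge.

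The 2 groups of genes were also counted cell by cell. Each cell was thinned to 4000 UMIs, which left out 292 shallower cells, and was said to carry a group when at least 3 of its genes had a UMI. Of 386 Transitional cells, 16.6% carried replication genes alone, 7.25% mitosis genes alone, 11.1% both and 65.0% neither. Of 471 TA cells, 0.212% carried replication genes alone, 63.9% mitosis genes alone, 34.8% both and 1.06% neither. In TA cells the mitosis genes summed to 7394 CPM and the replication genes to 811 CPM, as means over samples. Hmgb2 alone averaged 3596 CPM of the mitosis sum, and the rule counts a gene once, so the sums are only a rough guide to it. With a lower sum and 14 genes against 21, replication genes could meet the rule less easily at 4000 UMIs. TA cells with mitosis genes alone need not lack replication RNA. Transitional cells with replication genes alone made up 20.8%, 22.9%, 13.6% and 19.8% of Hnf4dTEC samples 1 to 4 and 8.70%, 14.8% and 12.2% of Hnf4ctrl samples 1 to 3, and the groups overlapped. Before thinning, median depth was 19911 UMIs in Transitional and 25336 UMIs in TA cells. A TA cell had a median of 2 replication genes and 9 mitosis genes detected, while a Transitional cell had a median of 1 of each. By this count replication genes were not detected more often in Transitional than in TA cells. Nearly all TA cells met the rule for mitosis genes, so few could carry replication genes alone.

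At least 5 of the 35 genes were detected in 96.0% of TA cells (452 of 471, 95% exact interval 93.8 to 97.6%) and in 26.2% of Transitional cells (101 of 386, interval 21.8 to 30.9%). The intervals cover counting error only. TA samples ranged from 89.5 to 98.1% and Transitional samples from 13 to 37.0%. Aire-expressing cells, the next stage, held 3.21% such cells (25 of 780), at a median depth of 18154 UMIs. Tuft cells held 0.15% (6 of 4006) and each of the other classes with mature or immature programs, apart from Ciliated cells, at most 0.709%. With no thinning, 62.8% of Transitional and 10.8% of Tuft cells had at least 5 genes, so these shares depend on the depth at which cells were compared.

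**Figure D3:**
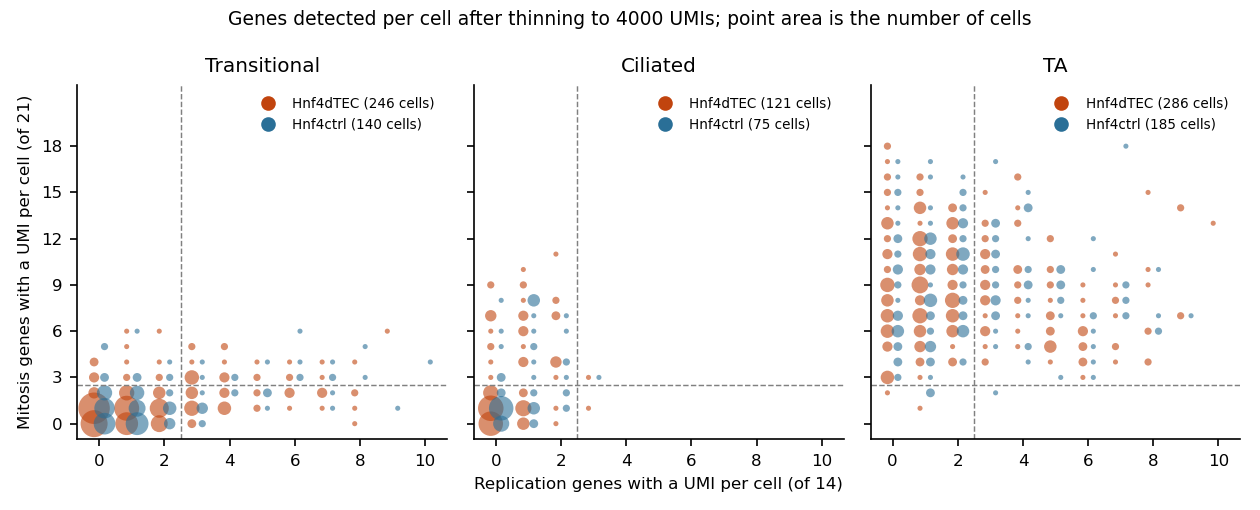
Number of replication genes (horizontal, of 14) and mitosis genes (vertical, of 21) with a UMI in each cell after thinning to 4000 UMIs, for Transitional, Ciliated and TA cells; point area is the number of cells, orange is Hnf4dTEC, blue is Hnf4ctrl, and dashed lines mark 3 genes. Transitional cells extend to the right (16.6% beyond the vertical line alone), Ciliated cells extend upward (32.7% above the horizontal line alone) and TA cells fill the region above the horizontal line.

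Many Ciliated cells carried several mitosis genes, and few carried several replication genes. These mimetic cells take on the program of multiciliated airway cells, which do not divide but are known to reuse parts of the mitotic machinery while they multiply their centrioles. Of 196 Ciliated cells, 32.7% carried mitosis genes alone, 1.02% both groups and 0.510% replication genes alone. At least 5 of the 35 genes were detected in 30.6% of them (60 of 196, exact interval 24.2 to 37.6%), with 32.1%, 9.52%, 31.4% and 48.6% in Hnf4dTEC samples 1 to 4 and 7.14%, 21.4% and 34% in Hnf4ctrl samples 1 to 3. The groups overlapped, and samples held as few as 14 Ciliated cells. In Ciliated cells the mitosis genes summed to 1400 CPM and the replication genes to 149 CPM, as means over samples. Hmgb2 alone averaged 530 CPM of the mitosis sum there. With a lower sum and fewer genes, replication genes could meet the rule of 3 genes less easily. Over the 21 mitosis genes the median ratio of Ciliated to TA cells was 0.184, and over the 14 replication genes it was 0.141. The medians hide a wide spread among the mitosis genes, from 0.0150 for Ccna2 to 0.878 for Aurka.

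The genes at the ends of that spread were chosen after their values were seen. Aurka encodes a kinase of the centrosome and spindle poles, also known for its part in taking cilia apart. It was at 53.4, 26.4, 86.1 and 85.1 CPM in Ciliated cells of Hnf4dTEC and at 3.74, 62.9 and 66.0 CPM in those of Hnf4ctrl. In TA cells Aurka was at 54.3, 73.3, 53.2 and 54.1 CPM in Hnf4dTEC and at 79.6, 59.1 and 62.9 CPM in Hnf4ctrl. Ciliated cells were above TA cells in 4 of 7 samples. Cdc20, the activator of the anaphase-promoting complex, averaged 100 CPM in Ciliated and 148 CPM in TA cells, with overlapping ranges. Ccnb1, a B cyclin, averaged 45.4 CPM in Ciliated and 101 CPM in TA cells, and its ranges overlapped too.

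The other mitosis genes lay between these ends. Cenpf, a kinetochore protein, kept a ratio of Ciliated to TA cells of 0.318, Top2a of 0.295 and Tpx2, which activates Aurka on the spindle, of 0.265. Ccnb2, the other B cyclin, had a ratio of 0.212, Plk1 of 0.200 and Kif11, the kinesin that pushes the spindle poles apart, of 0.184. The checkpoint kinases Bub1b and Bub1 had ratios of 0.206 and 0.147. Aurkb, Cdca8 and Birc5 encode parts of the chromosomal passenger complex, and their ratios were 0.163, 0.182 and 0.0935.

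Cyclin A2 behaved otherwise. Ccna2, whose product drives S phase and entry into mitosis, was at 1.40, 0, 1.29 and 7.26 CPM in Ciliated cells of Hnf4dTEC and at 0, 0 and 2.33 CPM in those of Hnf4ctrl. In TA cells it was at 119, 128, 134 and 103 CPM in Hnf4dTEC and at 116, 115 and 106 CPM in Hnf4ctrl. Mki67 averaged 11.5 CPM in Ciliated and 279 CPM in TA cells, and Nusap1 13.6 CPM in Ciliated and 310 CPM in TA cells. Cdc6 had no UMI in any of the 197 Ciliated cells, where a count of 0 sets only an upper limit. Among the replication genes, Rrm1 (ratio 0.414), Gins2 (0.399) and Mcm6 (0.304) had the highest ratios of Ciliated to TA cells. Rrm1 and Gins2 were at 26.3 and 9.22 CPM in Ciliated cells. In classes other than TA, Transitional and Ciliated they reached at most 18.4 and 7.26 CPM. Mcm6, however, was higher in Immature cells (20.5 CPM) than in Ciliated cells. The replication sum in Ciliated cells, 149 CPM, lay between those of Tuft (133 CPM) and Immature cells (171 CPM).

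The proportions among the mitosis genes also differed between Ciliated and TA cells. For each UMI of Top2a, Ciliated cells held 0.0615 and TA cells 0.453 UMIs of Mki67. For Ccna2 the same quantity was 0.0121 in Ciliated and 0.194 in TA cells, and for Aurka it was 0.310 in Ciliated and 0.102 in TA cells. Scrublet, a caller of doublets, marked 3 of the 60 Ciliated cells with at least 5 of the genes and 11 of the other 136. Without marked cells the share with at least 5 genes was 31.3%.

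The 60 Ciliated cells with at least 5 of the genes differed from the other 136 in genes that took no part in that choice, and these are given with no test, since the cells were chosen by their values. Their median depth was 31743 UMIs, against 21132 UMIs in the other Ciliated cells. Ccno, a cyclin-like factor needed for centriole multiplication, was at 375 CPM in Hnf4dTEC and 562 CPM in Hnf4ctrl cells with at least 5 of the genes, and at 28.2 CPM in Hnf4dTEC and 71.1 CPM in Hnf4ctrl cells with fewer. Mcidas, a regulator that starts the multiciliated program, was at 294 CPM in the cells with at least 5 and 34 CPM in those with fewer. Plk4, the kinase that starts centrioles, was at 361 CPM in the first set and 30.3 CPM in the other, and Deup1, a part of the deuterosomes on which centrioles form, at 592 CPM in the first set and 89.4 CPM in the other. Ccp110, which caps centrioles, was closer between them, at 188 CPM in the first set and 127 CPM in the other, and Gmnc was low in both sets.

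The cilia markers did not share a single order: Dnah5 and Cfap43 had the opposite one, Tekt1 the same, and Foxj1 differed by genotype. Dnah5, a dynein heavy chain of the axoneme, was at 211 CPM in the Ciliated cells with at least 5 of the genes and 770 CPM in those with fewer, and Cfap43 at 111 CPM in the cells with at least 5 and 340 CPM in those with fewer. Foxj1, the master factor of motile cilia, was at 552 CPM in the cells with at least 5 and 576 CPM in those with fewer, with opposite orders in the 2 genotypes, and Tekt1, a tektin of the axoneme, at 410 CPM and 309 CPM. Both genotypes, each with its cells pooled over samples, showed the orders given for Ccno, Mcidas, Plk4, Deup1, Dnah5, Cfap43 and Tekt1. Most of the 20 Hnf4ctrl cells with at least 5 of the genes came from sample 3, and the orders within single samples were not examined. Replication genes were not absent from the cells with at least 5 of the genes. These took part in the choice of the cells: Rrm1 was at 57.7 CPM in the cells with at least 5 and 12.7 CPM in those with fewer, Rrm2 at 39.7 CPM and 19.3 CPM, and Gmnn at 22.7 CPM and 8.94 CPM, whereas Pcna was at 22.7 CPM and 25.1 CPM and Mcm6 at 9.80 CPM and 16.8 CPM. Ccna1, the other A-type cyclin, was at 239 CPM in the cells with at least 5 and 90.8 CPM in those with fewer, and over all Ciliated samples it averaged 138 CPM, against 0.432 CPM in TA cells. Of the 11 multiciliation genes examined, 10 were highest in Ciliated cells, with Gmnc highest in Aire-expressing cells.

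**Figure D4:**
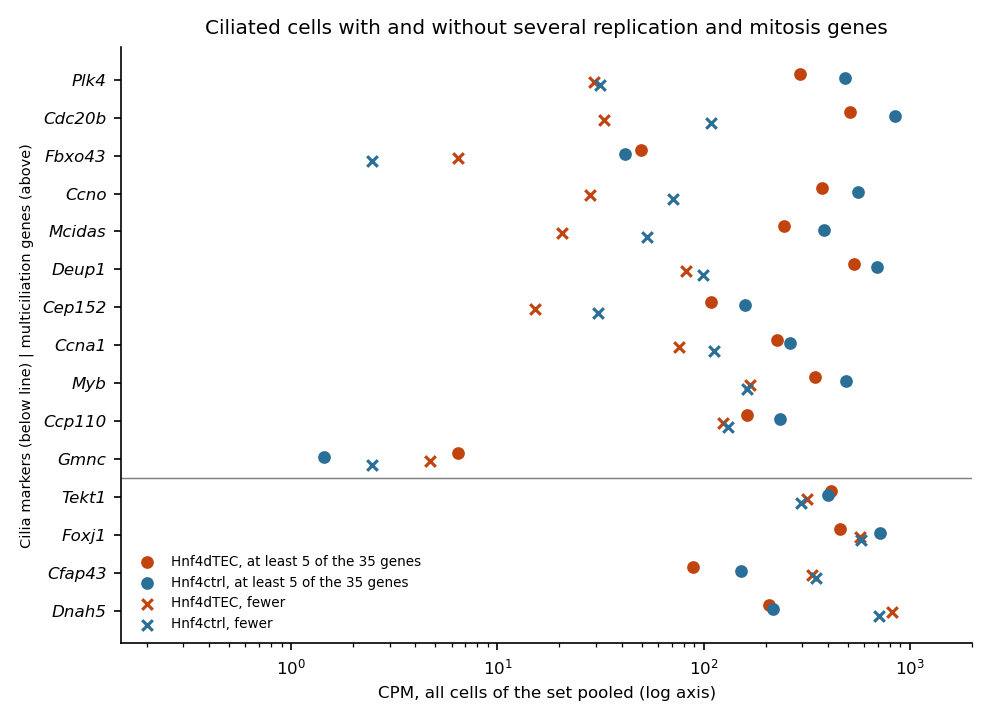
CPM (log axis, cells of a set pooled) of 11 multiciliation genes above the line and 4 cilia markers below it in Ciliated cells with at least 5 of the 35 replication and mitosis genes (circles) and with fewer (crosses), in Hnf4dTEC (orange) and Hnf4ctrl (blue). Circles lie right of crosses for 10 of the multiciliation genes, such as Plk4 at 361 CPM against 30.3 CPM in both genotypes pooled, and left of them for Dnah5 and Cfap43.

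Other genes of the pathway were listed with earlier results of these data known. Of 42 further replication genes, 24 were highest in TA and 8 in Transitional cells, while the rest were highest in Aire-adjacent, Ciliated, Microfold, Muscle, Neuroendocrine or Tuft cells, 1 or 2 in each. Cdt1, the partner of Cdc6, was at 14.8 CPM in Transitional and 8.04 CPM in TA cells. Of 46 further mitosis genes, 43 were highest in TA cells. The exceptions were Ckap2l and Pttg1, the inhibitor of separase, both highest in Ciliated cells, and Cdc25b, highest in Neuroendocrine cells. Of 21 G1 cyclins and factors, 5 were highest in Transitional cells: Ccnd1, Ccnd2, E2f1, E2f3 and Myc. Ccnd2, a D-type cyclin, averaged 1281 CPM in Transitional and 821 CPM in TA cells, and Ccnd1 190 CPM in Transitional and 107 CPM in TA cells. Of 17 inhibitors of the cycle, 2 were highest in TA cells, while Cdkn1a and Cdkn2a were highest in Secretory cells and Cdkn1c, at 6733 CPM, in Muscle cells.

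The genotype comparison asked whether loss of both Hnf4 receptors went with a change in these genes, over all cells and within each class with at least 3 samples a group. No call was made for any of the 35 genes. Over all cells 0 of 35 passed an adjusted p of 0.05 in edgeR's quasi-likelihood test, where 0.184% of 21187 genes did, and 1 of 35, Kif23, had an unadjusted p under 0.05, where 6.65% of all genes did. In TA cells 0 of 34 tested passed, with 0% of 10423 genes called, and 1 of 34 had an unadjusted p under 0.05, against 3.94% of all genes tested. DESeq2 and edgeR without its filter also called 0 of the genes in both of these comparisons. Summed over the mitosis genes, all cells were at 889, 823, 865 and 1141 CPM in Hnf4dTEC and at 593, 996 and 1268 CPM in Hnf4ctrl. Summed over the replication genes they were at 203, 213, 217 and 277 CPM in Hnf4dTEC and at 168, 240 and 260 CPM in Hnf4ctrl. The groups overlapped in both sums. In Ciliated cells the sum over the replication genes was at 162, 152, 194 and 159 CPM in Hnf4dTEC and at 120, 109 and 150 CPM in Hnf4ctrl, where the groups did not overlap. This sum was picked after its values were seen, from sums of both lists over all classes. Hnf4ctrl samples 1 and 2 held 14 Ciliated cells each. The share of all genes without overlap in Ciliated cells was not computed, and no test was made of such sums. In such sums over cells, fewer dividing cells and less RNA per cell cannot be told apart.

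The share of TA cells did not differ between the groups beyond the spread of the samples. It was 4.72%, 3.99%, 4.17% and 6.85% in Hnf4dTEC and 2.37%, 5.25% and 7.60% in Hnf4ctrl. The means were 4.93 ± 1.31% in Hnf4dTEC (SD, n = 4) and 5.07 ± 2.62% in Hnf4ctrl (SD, n = 3), with an exact two-sided permutation p of 0.971. The 7 samples allow 35 arrangements, too few for this two-sided p to fall under 0.05. The log2 ratio of shares from edgeR on cell counts was -0.07 with an SE of 0.38 (adjusted p = 0.971). Transitional cells made up 4.28 ± 1.35% in Hnf4dTEC (SD, n = 4) and 3.86 ± 1.65% in Hnf4ctrl (SD, n = 3), with an exact permutation p of 0.629. The log2 ratio of TA shares turned positive without Hnf4ctrl sample 3 (0.36), Hnf4dTEC sample 2 (0.02) or Hnf4dTEC sample 3 (0.01).

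Within TA cells, the genotypes were compared gene by gene. The median log2 fold change of Hnf4dTEC over Hnf4ctrl was 0.04 over the 34 genes tested, beside 0.00 over all genes tested, with 19 above 0 and 15 below. Hmgb2 was at 3635, 3451, 3688 and 3599 CPM in Hnf4dTEC and at 3789, 3496 and 3513 CPM in Hnf4ctrl. Its log2 fold change was 0.03, with an approximate 95% interval of -0.05 to 0.12. Such intervals come from the SE by a normal approximation, so with few samples they can be too narrow. Top2a was at 608, 634, 628 and 503 CPM in Hnf4dTEC and at 777, 573 and 592 CPM in Hnf4ctrl (log2 fold change -0.07, interval -0.28 to 0.14). Intervals were wider for Mcm5 (0.27, interval -0.11 to 0.65), Mcm2 (0.34, interval -0.35 to 1.03) and Cdc6 (0.67, interval -0.07 to 1.41). Larger differences are thus not excluded for these genes.

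In TA cells the groups did not overlap for 1 of the 34 genes tested, Mki67, where 5.72% of all genes tested did not overlap. It was at 256, 266, 283 and 213 CPM in Hnf4dTEC, against 350, 302 and 284 CPM in Hnf4ctrl. Its log2 fold change was -0.24 with an SE of 0.10 and an adjusted p of 1.000 in edgeR, so it did not pass. Cdk1 (log2 fold change -0.12), Ube2c (0.05) and Nusap1 (0.07) had SEs of 0.10 to 0.13. The replication genes Tyms (-0.02), Pcna (0.05), Gmnn (-0.01) and Rrm2 (-0.03) had SEs of 0.13 to 0.15. The widest error was that of Cdc6, at 0.67 with an SE of 0.38. Ung lay under the filter on low counts in TA cells and was not tested there, and Hnf4ctrl sample 1 gave 19 TA cells.

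In Transitional cells 0 of 25 genes tested passed, where 0% of 9262 genes did, and none of the 25 had an unadjusted p under 0.05 in edgeR, where 5.03% of all genes did. All 14 replication genes were tested there, with a median log2 fold change of 0.16 beside 0.01 over all genes, and 11 of 14 above 0. Of the ring subunits, Mcm3 had the largest value, 0.31 with an SE of 0.19. In Ciliated cells 0 of 22 passed (0% of 9609 genes called) and 2 of 22 had an unadjusted p under 0.05, where 2.65% of all genes did: Mcm6 (1.25, SE 0.51) and Kif11, a spindle kinesin (1.12, SE 0.42), both with an adjusted p of 1.000 in edgeR. In Aire-expressing cells 0 of 22 passed, with 0% of 12931 genes called, and 2 of 22 had an unadjusted p under 0.05, where 5.15% of all genes did: Bub1b at a log2 fold change of 1.32 (SE 0.45) and Cdk1 at -0.77 (SE 0.28). DESeq2 and the fit with no filter also called 0 members in these 3 classes.

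The remaining classes held few of the genes above the filter. None passed of 8 tested in Keratinocyte cells (0.0799% of all genes called), 8 in Neuroendocrine cells (0.389%), 5 in Secretory cells (0.0314%), 4 in Immature cells (0%), 3 in Aire-adjacent cells (0%) and 1 in Microfold cells (3.03%). In edgeR 1 of these tests had an unadjusted p under 0.05, Mcm6 in Neuroendocrine cells, where 8.32% of all genes did, and DESeq2 and the fit with no filter called 0. Of the pathway lists, Cdkn1a, the p21 inhibitor of cyclin-dependent kinases, was the sole gene called in any comparison. It rose in Neuroendocrine cells to 261, 274, 217 and 222 CPM in Hnf4dTEC, against 163, 122 and 118 CPM in Hnf4ctrl, a log2 fold change of 0.90 with an SE of 0.14 and an adjusted p of 0.0224 in edgeR. The adjusted p was 0.0539 to 0.115 without Hnf4dTEC sample 1 or 2 or without Hnf4ctrl sample 2 or 3, while the log2 fold change was 0.87, 0.84, 0.85 and 0.81 in those fits, so the call was lost with a fold of about the same size.

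Kif23 stood apart, and it is named here after its values were seen. It encodes a kinesin of centralspindlin, which builds the midzone of the spindle and guides cytokinesis. Kif23 was the mitosis gene whose second class was Tuft: it averaged 15.8 CPM in Tuft and 68.1 CPM in TA cells, a ratio of 0.232, while the ratio of Tuft to TA cells was at most 0.0498, that of Hmgb2, for the other mitosis genes. In Tuft cells it was at 20.6, 18.4, 17.2 and 18.8 CPM in Hnf4dTEC against 11.5, 11.3 and 12.6 CPM in Hnf4ctrl, with no overlap. The log2 fold change was 0.65 with an SE of 0.11, an unadjusted p of 7.77e-05 and an adjusted p of 0.0675 in edgeR's quasi-likelihood test, just short of the threshold. In Tuft cells edgeR thus called 0 of 20 genes tested, with 0.0881% of 14760 genes called, and 1 of 20 had an unadjusted p under 0.05, where 8.74% of all genes did. Kif23 was also the 1 gene of these 20 whose groups did not overlap, where 8.96% of all genes tested did not. DESeq2 called Kif23 there (adjusted p = 0.0221), as did edgeR with no filter (9.30e-05) and edgeR without Hnf4ctrl sample 3 (0.0486). Without each of the other samples in turn the adjusted p was 0.0835 to 0.268. EdgeR also did not call it with the replicate number as a block (0.171) or with other scaling (RLE, 0.0696). The same held without cells marked by Scrublet (0.0641) or without cells with another top hash tag (0.0601). DESeq2 and edgeR with no filter called more genes of all kinds in Tuft cells than the main fit, as given further on.

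A Kif23 UMI was found in 13% of Tuft cells (536 of 4118, median depth 12186 UMIs), and 192 of these cells had at least 2. In Keratinocyte cells of like depth (median 11813 UMIs) the share was 2.73%, and in Neuroendocrine cells (median 12224 UMIs) 1.41%. By sample the share of Tuft cells was 16.5%, 14.3%, 12.6% and 14.9% in Hnf4dTEC and 8.99%, 8.67% and 11.2% in Hnf4ctrl. After thinning each cell to 4000 UMIs it was 7.81%, 5.53%, 5.6% and 6.09% in Hnf4dTEC and 4.91%, 4.04% and 5.76% in Hnf4ctrl, and the groups overlapped. Of 532 Tuft cells with Kif23 and at least 4000 UMIs, 3 had at least 5 of the 35 genes at that depth. None of 18 other mitosis genes (all but Hmgb2 and Top2a) was detected in 78.2% of Tuft cells with Kif23 and in 82.4% of those without, at median depths of 13228 UMIs with and 11978 UMIs without.

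In TA cells Kif23 was at 64.9, 69.2, 90.2 and 54.5 CPM in Hnf4dTEC and at 81.8, 61.5 and 54.7 CPM in Hnf4ctrl, with a log2 fold change of 0.19 and an SE of 0.18. The difference between the effects in Tuft and TA cells was not tested. Over all cells but TA, Kif23 was at 12.5, 10.7, 9.69 and 8.54 CPM in Hnf4dTEC and at 6.92, 6.34 and 5.62 CPM in Hnf4ctrl, with a log2 fold change of 0.74, an SE of 0.16 and an adjusted p of 0.198 in edgeR. The next gene in the annotation, Rplp1, was at 1829, 1901, 1786 and 1887 CPM in Tuft cells of Hnf4dTEC and at 1743, 1828 and 1860 CPM in those of Hnf4ctrl, where the groups overlapped.

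**Figure D5:**
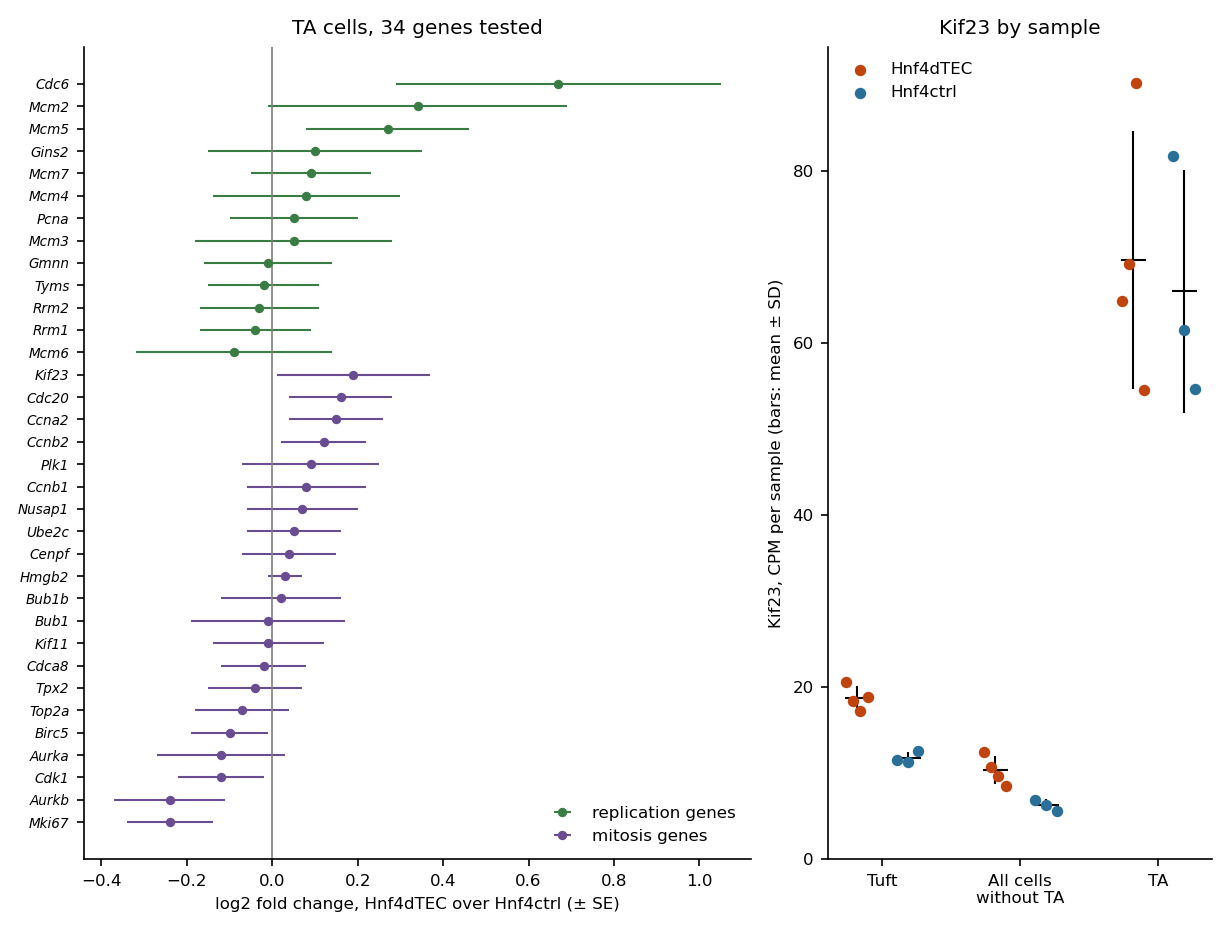
Left, log2 fold change of Hnf4dTEC over Hnf4ctrl with its SE for the 34 genes tested in TA cells, replication genes in green and mitosis genes in violet; they lie between -0.24 and 0.67, with Cdc6 farthest from 0. Right, Kif23 in CPM for each sample (points) with mean and SD in Tuft cells, in all cells but TA and in TA cells; in Tuft cells the Hnf4dTEC samples lie at 17.2 to 20.6 and the Hnf4ctrl samples at 11.3 to 12.6.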

How the data were processed

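Thymic mTEClo cells of 7 hashed samples (4 Hnf4dTEC, 3 Hnf4ctrl) were measured by droplet 3' RNA sequencing. The deposited matrix holds UMI counts per gene and barcode, not normalized, and the authors' cell table gives each cell's sample and class. Cell Ranger 6.1.0, Seurat 4.0.2 and the mm10 build are named in the submitters' processing notes; the counting's use of strand is not given in the sources used here. Of 18089 barcodes, the 9185 in the cell table were used, each with at least 1852 UMIs. Doublets were marked with Scrublet (scanpy 1.11.5, 203 cells or 2.21%) and kept, except in an alternative; 45 cells had another top hash tag.

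Counts were summed per sample and class where a class had at least 10 cells, and tested with edgeR 4.0.16 (quasi-likelihood, TMM, filterByExpr, R 4.3.3) on all genes, with Benjamini-Hochberg adjustment at 0.05. No covariate was used. DESeq2 1.42.0, other scaling, no filter, the replicate number as a block, and leaving out each sample were alternatives. The edgeR step was tested on simulated data. Levels are CPM per sample and class, averaged over samples. For shares of cells, each cell was thinned to 4000 UMIs (random seed 0). The overlaps of genes come from the mouse GENCODE annotation, release 21, and promoters from RefSeq.

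Genes named by rule were the 4 replication and 6 mitosis genes highest in TA cells the 6 genes with the highest ratio of their highest class other than TA to TA, and any gene past the threshold; others were named after their values were seen. The 35 genes and the pathway lists were chosen with earlier results of these data known. Replicates of a group differed by more than sampling noise (chi-square per degree of freedom 5.23 to 31.3). Median depth was 12535 to 14025 UMIs a cell in Hnf4dTEC samples and 11528 to 15053 UMIs in Hnf4ctrl samples.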

Additional observations from a re-analysis of the deposited data

Results flagged for a closer look

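Of 48 sets of 4 Hnf4dTEC samples examined, 2 held a sample set far from the others, and chance alone marks about 1 in 20. Aurka in TA cells was at 54.3, 73.3, 53.2 and 54.1 CPM in Hnf4dTEC samples 1 to 4, and the gap of sample 2 to the next was 0.945 of the whole range. Cdc6 in Transitional cells was at 9.62, 9.02, 10.7 and 31.3 CPM in Hnf4dTEC samples 1 to 4, and the gap of sample 4 was 0.925 of the whole range. Groups of 3, such as Hnf4ctrl, were not examined.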

How the results depend on the processing

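The count of called genes moved with the tool and filter, while no replication or mitosis gene was called outside Tuft cells by edgeR, DESeq2 or the fit with no filter. Against 39 genes called over all cells, DESeq2 called 233, the replicate block 7, and the fits without a sample 2 to 31. With no filter on low counts, called genes were 279 in Aire-adjacent, 164 in Ciliated, 54 in Immature, 326 in Keratinocyte, 602 in Microfold, 419 in Neuroendocrine, 269 in Secretory, 192 in TA, 115 in Transitional and 470 in Tuft cells. DESeq2 called 25 in Aire-adjacent, 48 in Aire-expressing, 48 in Keratinocyte, 82 in Neuroendocrine, 28 in Secretory, 1 in TA and 78 in Tuft cells. The replicate block gave 73 in Microfold, 1 in Secretory and 2 in TA cells. Without cells marked by Scrublet there were 4 in Keratinocyte, 6 in Secretory and 1 in TA cells. Leaving out each sample gave 0 to 9 in Aire-adjacent, 0 to 2 in Immature, 2 to 18 in Keratinocyte, 28 to 95 in Microfold, 10 to 42 in Neuroendocrine, 0 to 6 in Secretory, 0 to 1 in TA, 0 to 2 in Transitional and 5 to 52 in Tuft cells. Members called in Tuft cells were 1 by DESeq2, 1 with no filter and 0 to 1 without a sample. The cause was not tested.

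Some small log2 fold changes turned sign. The replicate block gave 0.00 for Tyms and 0.00 for Top2a in TA cells, and -0.47 for Cdc6 and -0.05 for Mcm2 in Transitional cells. Same-numbered samples deviated together with correlations of 0.229, 0.0835 and 0.043. Samples with different numbers were not compared in this way, and the labels do not say whether the numbers pair samples. The block left Kif23 in Tuft cells at an adjusted p of 0.171. Leaving out each sample gave, in TA cells, -0.09 to 0.14 for Tyms, -0.07 to 0.18 for Pcna, -0.12 to 0.11 for Gmnn, -0.11 to 0.10 for Rrm2, -0.00 to 0.07 for Hmgb2, -0.17 to 0.06 for Top2a, -0.04 to 0.13 for Ube2c and -0.10 to 0.21 for Nusap1. In Transitional cells it gave -0.40 to 0.59 for Cdc6, -0.17 to 0.29 for Mcm2, -0.07 to 0.56 for Mcm4 and -0.03 to 0.33 for Mcm6. The log2 ratio of TA shares was -0.39 to 0.36 without a sample.

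The share of cells with at least 5 members depended on depth and on the number asked for. In TA cells it was 83.4% at 2000 UMIs, 100% with no thinning, 99.6% for 3 members and 66.0% for 10. In Transitional cells it was 13.1%, 62.8%, 46.9% and 4.15% under the same settings. In Ciliated cells it was 17.3%, 53.8%, 39.3% and 3.06%. In Aire-expressing cells it was 0.764%, 39.4%, 18.5% and 0.128% under the 4 settings, and in Tuft cells 10.8% with no thinning and 8.39% for 3 members. Alternatives chosen after seeing the data left out each sample in turn from the class levels: the median ratio of Transitional to TA cells stayed at 0.987 to 1.06 for replication and 0.0553 to 0.0642 for mitosis genes. A minimum of 20 cells gave no value for TA, Ciliated and Microfold cells.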
